A study of Mus musculus with 8 samples.

Results

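The 10 genes described here are germline genes that are known to be kept silent in somatic tissues by DNA methylation of their promoters, and they are named by their symbols: *Dazl*, *Mael*, *Sycp1*, *Sycp3*, *Asz1*, *Hormad1*, *Brdt*, *Mov10l1*, *Piwil2* and *Dpep3*. They are 10 of the 23337 names in the deposited table of gene counts, and each of them has a row. Polyadenylated RNA was sequenced from 4 mouse embryonic stem (ES) cell clones, numbered 6, 20, 30 and 36, at passage 6 and again at passage 16, so that there were 8 libraries and n = 4 clones per passage. At each passage a crowded culture is split into new dishes. In both groups the sample labels give the strain as 129S1 and the genotype as wild type, the series text adds that the blastocysts of origin carried GFP in the *Rosa26* locus, and the cells were grown in DMEM with LIF, the cytokine that keeps mouse ES cells undifferentiated. Each clone is a single line, and each clone has a single library per passage. The study expanded these lines in culture to lengthen their telomeres, and the comparison of passage 16 with passage 6 asks what else differed in the cells by then.

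In most tissues the CpG-rich promoters of such genes acquire methylation in the early embryo, when the enzymes Dnmt3a and Dnmt3b act, and copying of the mark by Dnmt1 and Uhrf1 keeps it in place. A Polycomb complex that contains Pcgf6, E2f6, Mga and Max, called PRC1.6, binds many of the same promoters in ES cells and holds them down, in part through the E-box sequence that Mga and Max recognise and a site recognised by E2f6. The genes serve later steps of germ cell life. They include the piRNA pathway, which silences transposons with small RNAs, and the protein scaffold that pairs chromosomes in meiosis. DNA methylation itself was not measured in these libraries, so the name of the group says nothing about the state of the promoters here.

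The recovered library totals lay between 21394069 and 34295561 reads. Values are normalized counts, the reads of a gene divided by 1 size factor per library, and a value of 1 stands for about 1 read. Part of the table has rows that are out of register between libraries, where a name is also the beginning of a longer name that goes on with a digit. None of the 10 germline genes lies in such a group. Their lines stood in order with both neighbouring lines in all 8 libraries, but outside these groups the names alone fix that order. The order is therefore no test of their counts. The ES cell label was checked against its markers, and *Pou5f1*, which encodes the pluripotency factor Oct4, lay between 23589 and 29184 normalized counts. Of 6 ES cell markers tested none passed between the passages, and *Nanog* (log2 fold change 0.27) and *Klf4* (0.28) had an unadjusted p under 0.05. Summed over 10 fibroblast markers the level was 3851 to 5921, most of it from *Col1a2* (1830.0 to 3646) and *Col1a1* (1192 to 2173), with *Lum*, *Twist2* and *S100a4* at means under 10, and over 4 markers of primordial germ cells it was 4636 to 8929. Transcripts of the Y-linked genes *Ddx3y*, *Eif2s3y*, *Kdm5d* and *Uty* were at least 115 normalized counts in every library of clones 20 and 30 and at most 9.48 in clones 6 and 36.

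All 10 genes had reads in all 8 libraries, so none of them was without transcripts in these cultures. The lowest single value was 27 reads, for *Dpep3*, and the highest was 3203 reads, for *Dazl*. Levels of the 10 genes are compared with each other only per kilobase of exon, with the lengths of the GENCODE M21 annotation of GRCm38. On that scale *Dazl* averaged 603 normalized counts per kilobase and lay above 88.3% of the 20915 names with a length. *Hormad1* followed with 461, *Mael* with 393 and *Sycp3* with 341 per kilobase, and these 3 genes lay above 85.1%, 82.8% and 80.9% of the names. The range of *Dazl* over the 8 libraries, 492.0 to 802, began just above the range of *Hormad1*, 389 to 491. The reads were counted on the UCSC annotation, so a small difference in length could make the ranges of *Dazl* and *Hormad1* overlap. The ranges of *Hormad1*, *Mael* (278 to 522) and *Sycp3* (177 to 555) overlapped. *Piwil2* had 147 per kilobase, with a range of 129 to 213 that did not reach that of *Mov10l1*, 80.4 to 116. *Mov10l1* averaged 97.2 per kilobase, *Asz1* 86.3 and *Sycp1* 65.1. *Brdt* with 32.7 and *Dpep3* with 21.8 per kilobase were the lowest, and their ranges overlapped with each other and with that of *Sycp1*. *Dpep3* lay above 48.9% of all names but above only 20.6% of the 13383 names that had both a length and a mean of at least 10 normalized counts.

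**Figure D1:**
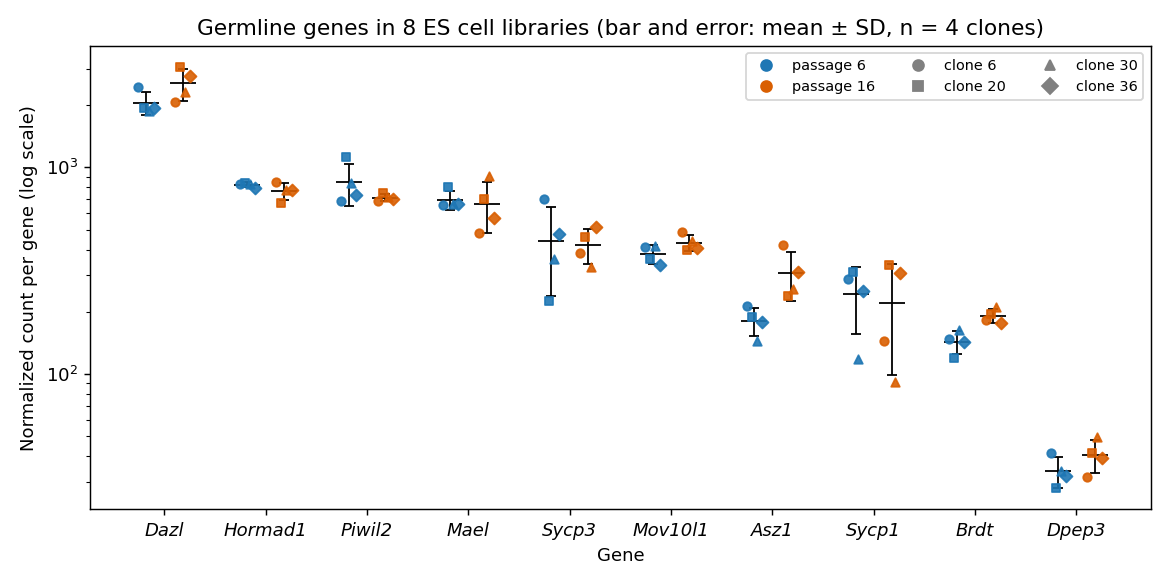
Normalized counts (log scale) of the 10 germline genes, ordered by mean count, which is not an order of levels per length, at passage 6 (blue) and passage 16 (orange), with 1 point per library, a symbol per clone, and the mean ± SD of the 4 clones. *Dazl* stands highest at 1879 to 3064 and *Dpep3* lowest at 27.9 to 49.3, and the passages overlap for all genes except *Asz1* and *Brdt*.

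Other germline genes give a measure of silence in the same libraries. *Nanos2*, a regulator of male germ cells, had 0 reads in 7 libraries and a normalized count of 0.901 in the passage 6 library of clone 20, and a count of 0 allows up to 3 reads, or 2.46 to 4.01 normalized counts depending on the library. Of 47 other germline genes whose rows lie outside the displaced groups, 5 had a mean under 10 normalized counts. These were *Nanos2*, *Spo11*, the nuclease that opens meiotic recombination, the sperm kinase gene *Pgk2*, the cohesin gene *Rad21l* and *Tdrd6*, named here after their values were seen. All 10 genes of the group lay above that level, since the lowest mean was 37.0 for *Dpep3*. So did most names, as 14791 of all 23337 had a mean of at least 10.

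Promoter windows of 300 bases, from 250 before to 50 after the annotated start, were read from RefSeq (GRCm38.p6) for 9 of the 10 genes. *Piwil2* had no entry. The windows held between 12 CpG dinucleotides, in *Dpep3*, and 28, in *Dazl*, with a median of 21, against a median of 7 over all 32851 windows of the table. The ratio of observed to expected CpG was between 0.462 and 0.874, against a median of 0.384. The E-box CACGTG, which reads the same on both strands, was present in 6 of the 9 windows (*Mael*, *Sycp1*, *Sycp3*, *Hormad1*, *Brdt* and *Mov10l1*) and in 7.15% of all windows. Among the 13006 windows with at least 12 CpG, it was present in 11.1%. The E2f6 sequence GCGGGAA, searched on both strands, was present in *Sycp3* and *Hormad1* and in 4.6% of all windows. Among the windows with at least 12 CpG, it was present in 9.72%. *Sycp3* and *Hormad1* each held 2 E-boxes and 1 E2f6 sequence, and no match overlapped another. The E-boxes began at positions -64 and -43 from the start in *Sycp3*, at -57 and -20 in *Hormad1* and at -94 in *Sycp1*. In *Brdt* the E-box began at -78, and in *Mael* and *Mov10l1* it lay farther from the start, at -223 and -246. The E2f6 sequence began at -147 in *Sycp3* and at -95 in *Hormad1*. A match to these letters is a description of the window and not evidence that a protein binds there.

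**Figure D2:**
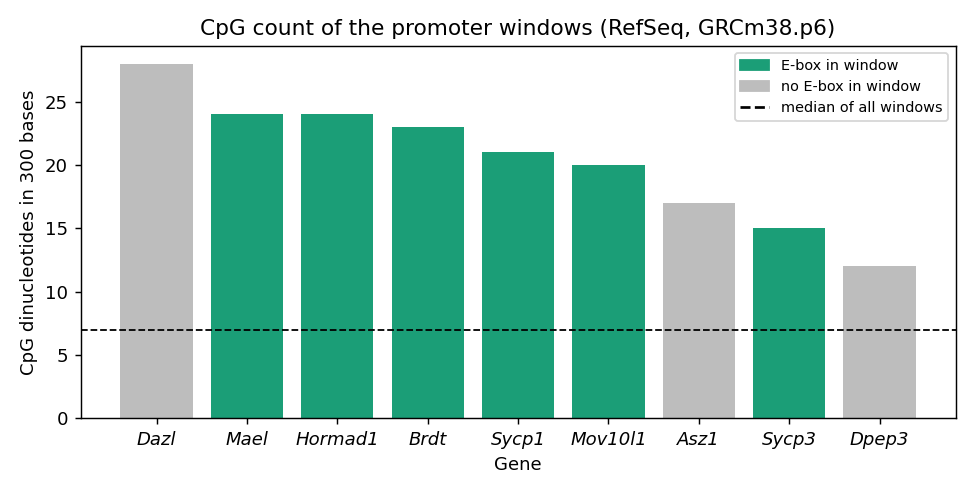
Number of CpG dinucleotides in the 300-base promoter window of each of the 9 genes with an entry, coloured by whether the window holds the E-box CACGTG, with the median of all windows as a dashed line. The 9 windows hold 12 to 28 CpG and all lie above the median of 7, and the 3 windows without an E-box are those of *Dazl*, *Asz1* and *Dpep3*.

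The 250 bases before the annotated start are shown, 5′ to 3′, for the 2 genes with both motifs and for *Sycp1*, *Asz1* and *Dazl*. The bases of *Brdt*, which are not shown, hold an E-box at -78. Capitals mark the E-box and the E2f6 sequence, and *Asz1* and *Dazl* hold neither.
Hormad1, chr3:95559427-95559676 (+ strand): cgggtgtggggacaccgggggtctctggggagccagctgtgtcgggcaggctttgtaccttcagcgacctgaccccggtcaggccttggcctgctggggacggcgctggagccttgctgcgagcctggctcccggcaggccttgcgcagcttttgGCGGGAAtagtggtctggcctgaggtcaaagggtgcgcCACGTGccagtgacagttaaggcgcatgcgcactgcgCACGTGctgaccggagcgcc
Sycp3, chr10:88459337-88459586 (+ strand): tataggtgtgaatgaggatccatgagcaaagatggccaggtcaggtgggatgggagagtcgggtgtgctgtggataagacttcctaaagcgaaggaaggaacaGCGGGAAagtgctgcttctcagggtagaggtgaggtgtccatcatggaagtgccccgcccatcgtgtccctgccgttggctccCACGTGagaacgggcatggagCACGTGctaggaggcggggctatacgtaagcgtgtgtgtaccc
Sycp1, chr3:102936101-102936350 (- strand): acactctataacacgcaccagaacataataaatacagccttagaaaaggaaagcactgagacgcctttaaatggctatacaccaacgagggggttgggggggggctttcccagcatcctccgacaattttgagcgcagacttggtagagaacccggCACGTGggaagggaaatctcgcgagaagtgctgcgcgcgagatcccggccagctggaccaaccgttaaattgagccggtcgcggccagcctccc
Asz1, chr6:18109062-18109311 (- strand): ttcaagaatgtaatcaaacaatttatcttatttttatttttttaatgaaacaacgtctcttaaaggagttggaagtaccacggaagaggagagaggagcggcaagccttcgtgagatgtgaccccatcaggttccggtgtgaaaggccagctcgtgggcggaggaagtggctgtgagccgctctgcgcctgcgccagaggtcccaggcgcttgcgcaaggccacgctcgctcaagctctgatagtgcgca
Dazl, chr17:50293621-50293870 (- strand): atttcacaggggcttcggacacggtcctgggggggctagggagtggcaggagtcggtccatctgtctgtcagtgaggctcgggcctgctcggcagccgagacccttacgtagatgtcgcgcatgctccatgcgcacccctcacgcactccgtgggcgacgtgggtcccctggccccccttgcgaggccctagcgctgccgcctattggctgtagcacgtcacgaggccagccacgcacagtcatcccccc

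None of the 10 genes passed an adjusted p of 0.05 between the passages (limma on log2(normalized count + 1), Benjamini-Hochberg adjustment over 14791 names), where 0.00676% of all names passed. An unadjusted p under 0.05 was found for *Asz1* and *Brdt*, or 2 of 10 genes, against 3.5% of all names. Both were higher at passage 16, where 1.71% of all names were higher at that p. Of the 10 genes, 6 had a log2 fold change above 0, and the median over the 10 was 0.11. Over all names tested, 7230 of 14791 had a log2 fold change above 0 and the median was -0.0037. The same 2 genes, *Asz1* and *Brdt*, were higher in every passage 16 library than in any passage 6 library, a pattern found in 1.18% of all names, and in 2.43% when either direction is counted.

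**Figure D3:**
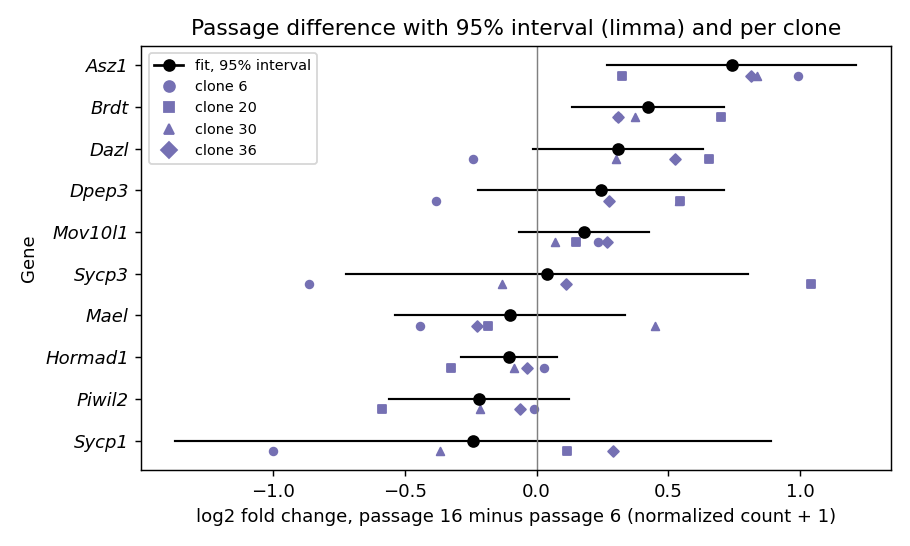
log2 fold change between passage 16 and passage 6 for each gene (black point) with its 95% interval from limma (black line), and the difference within each clone (purple symbols). The interval lies above 0 for *Asz1* and *Brdt* and includes 0 for the other 8 genes, and *Sycp1* and *Sycp3* have the widest intervals.

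*Asz1* encodes an ankyrin repeat protein of germ granules that is needed to keep PIWI proteins stable, and it lies on chromosome 6 from 18050964 to 18109061 (minus strand). Its normalized count at passage 6 was 212, 189, 144 and 178 in clones 6, 20, 30 and 36. At passage 16 it was 423, 237, 257 and 313 in the same order. All 4 clones were higher at passage 16, and clone 6 had the highest value at both passages. Passage 6 averaged 181 ± 28.6 (SD, n = 4) and passage 16 averaged 307 ± 83.2 (SD, n = 4). The log2 fold change fitted to *Asz1* was 0.74 (standard error 0.204, 95% interval 0.27 to 1.21, adjusted p = 0.947 from limma). The two-sided exact permutation test gave p = 0.0286, which is its lower limit with groups of 4. That test did not pair the libraries of a clone. When the libraries of a clone were paired in DESeq2, *Asz1* passed the threshold (log2 fold change 0.74, adjusted p = 0.00916), as it did 0.717% of all names, and in paired fits with limma and edgeR it did not.
Names on chromosome 6 had a higher median at passage 16 in clone 6, and their distribution along the chromosome was not examined. The median log2 difference between passages over 520 names on it was 0.27 in clone 6 and between -0.030 and 0.054 in the other clones. *Asz1* differed by 0.99 in clone 6, 0.32 in clone 20, 0.84 in clone 30 and 0.81 in clone 36 on the log2 scale. Relative to the chromosome median of the same clone, these differences were 0.72, 0.29, 0.87 and 0.76. Without both libraries of clone 6 the fitted log2 fold change of *Asz1* was 0.66.

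*Brdt* encodes a bromodomain protein that reads acetylated histones in spermatocytes and spermatids, and it lies on chromosome 5 from 107331159 to 107387058 (plus strand). At passage 6 its normalized count was 147, 119.8, 163 and 142 in clones 6, 20, 30 and 36. The counts at passage 16 were 182, 195, 211 and 176. Clone 30 was the highest at both passages, and each clone was higher at passage 16 than any clone at passage 6. Means were 143 ± 17.7 (SD, n = 4) and 191 ± 15.3 (SD, n = 4), with a fitted log2 difference of 0.42 (standard error 0.124, 95% interval 0.14 to 0.71, adjusted p = 0.947 from limma). The exact permutation test, again without pairing by clone, gave p = 0.0286, the smallest it can give. Chromosome 5 as a whole had median differences between -0.024 and -0.0015 in the 4 clones.

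**Figure D4:**
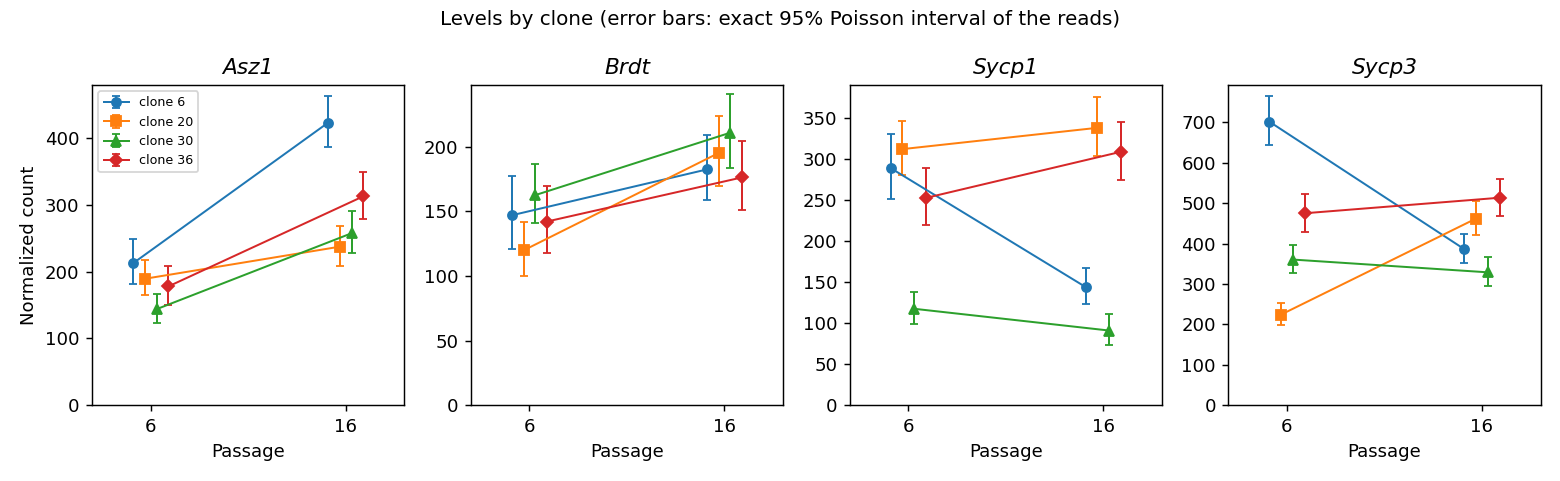
Normalized counts of *Asz1*, *Brdt*, *Sycp1* and *Sycp3* at passages 6 and 16, with 1 line per clone and the exact 95% Poisson interval of the reads, which covers counting error only. *Asz1* and *Brdt* are higher at passage 16 in each clone, *Sycp1* lies at 90.9 to 117 in clone 30 at both passages, and the lines of *Sycp3* cross.

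*Dazl* encodes an RNA-binding protein that controls translation in germ cells and lies on chromosome 17 from 50279395 to 50293636 (minus strand). At passage 6 its normalized count was 2440.0, 1948, 1879 and 1939 in clones 6, 20, 30 and 36. Counts at passage 16 were 2062, 3064, 2318 and 2786. Clones 20, 30 and 36 were higher at passage 16 and clone 6 was lower, so that clone 6 was the highest of the 4 clones at passage 6 and the lowest at passage 16. The log2 fold change was 0.31 (95% interval -0.015 to 0.63, adjusted p = 0.947 from limma), and the exact permutation test gave p = 0.114. Over its 8 libraries *Dazl* varied 1.63-fold, more than 61.9% of the 12283 names tested outside the displaced groups.

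Among the other genes of the piRNA pathway, *Mov10l1* encodes the RNA helicase that binds piRNA precursors and is found at 88982909 to 89055152 on chromosome 15. It had normalized counts of 413, 359, 418 and 336 at passage 6 and 485, 398, 438 and 405 at passage 16, in clones 6, 20, 30 and 36. It was higher at passage 16 in 4 of 4 clones, with overlapping groups and a log2 fold change of 0.18 (95% interval -0.067 to 0.42). With *Asz1* and *Brdt*, 3 of 10 genes were higher in 4 of 4 clones, against 7.81% of all names. Only *Piwil2* was lower in 4 of 4 clones. Of all names, 17.2% had the same direction, higher or lower, in 4 of 4 clones.
*Piwil2* encodes the PIWI protein MILI, which carries piRNAs, and lies on chromosome 14 from 70372477 to 70429383. Its counts were 689, 1125, 836 and 732 at passage 6 and 684, 749, 721 and 701 at passage 16. All 4 clones were lower at passage 16, but in clone 6 by only 0.011 on the log2 scale and in clone 20 by 0.59. The spread between clones was 196 (SD, n = 4) at passage 6 and 27.9 at passage 16, and the log2 fold change was -0.22 (95% interval -0.56 to 0.12). Without the passage 6 library of clone 20 it was -0.072.
*Mael* encodes Maelstrom, a factor of piRNA-guided silencing, and lies on chromosome 1 from 166201201 to 166238747. It had 655, 802, 663 and 663 normalized counts at passage 6 and 482, 706, 905 and 568 at passage 16. Clone 30 was higher at passage 16 and the other 3 clones were lower, and the log2 fold change was -0.10 (95% interval -0.54 to 0.34). Without the passage 16 library of clone 6 its sign turned, at 0.041.

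The 3 genes of the meiotic chromosome axis and the synaptonemal complex, which joins paired chromosomes, differed from each other in how much they varied. *Hormad1*, which encodes a HORMA domain protein that monitors pairing, is found at 95559677 to 95587671 on chromosome 3. It had normalized counts of 832, 844, 828 and 796 at passage 6 and 849, 673, 781 and 776 at passage 16. It was the steadiest of the 10 genes, with a ratio of highest to lowest library of 1.26, more than 27.4% of names, and a log2 fold change of -0.11 (95% interval -0.29 to 0.077).
*Sycp3*, an axial element gene, lies on chromosome 10 from 88459569 to 88473236. It had 702, 224, 360.5 and 475 normalized counts at passage 6 and 386, 462, 329 and 513 at passage 16. The highest and the lowest library were both at passage 6, in clones 6 and 20, and their Poisson intervals of 643 to 764 and 197 to 254 did not overlap. Between passages, *Sycp3* was lower by 0.86 on the log2 scale in clone 6 and higher by 1.04 in clone 20, and the fitted log2 fold change was 0.040 (95% interval -0.72 to 0.80), while the mean count was 440.3 at passage 6 and 423 at passage 16. Its sign turned in several fits, so no direction can be given. On the opposite strand, exons of *Chpt1* cover 660 of the 1264 exon bases of *Sycp3*, and whether the counting used the strand is not stated. *Chpt1* had 421 and 341 normalized counts in the 2 libraries at the extremes of *Sycp3*.

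*Sycp1* encodes the transverse filament that zips paired chromosomes together, and it lies on chromosome 3 from 102818499 to 102936100 (minus strand). Its normalized count was 289, 312, 117 and 252 at passage 6 and 144, 338, 90.9 and 308 at passage 16 in clones 6, 20, 30 and 36. Clone 30 was the lowest of the 4 clones at both passages and clone 20 the highest. Clone 6 was near the top at passage 6 and next above clone 30 at passage 16. There its Poisson interval of 123 to 168 did not overlap that of clone 30, 73.5 to 111. The ratio of the highest to the lowest library was 3.71, and on the log2(value + 1) scale *Sycp1* spread more than 94.5% of names. The clone means were 216, 325, 104 and 280.4, a log2 range of 1.64 between clones. The annotated pseudogene *Sycp1-ps1* had at most 5.12 normalized counts.
Markers of primitive endoderm, a lineage that can arise in ES cell cultures, were lowest in the same libraries as *Sycp1* and did not follow it in the others. The summed level of 6 such markers, *Gata4*, *Gata6*, *Sox7*, *Dab2*, *Pdgfra* and *Foxa2*, was 3985, 3192, 2348 and 7704 normalized counts at passage 6 and 2619.9, 6357, 1757 and 5402 at passage 16, with none of the 6 at 0 in any library. The 3 libraries with the lowest sums, both of clone 30 and the passage 16 library of clone 6, were also the 3 lowest for *Sycp1*. In clone 36 the sum was lower at passage 16, 5402 against 7704, where *Sycp1* was higher, 308 against 252, and clone 20 at passage 6 had a sum of 3192 with 312 counts of *Sycp1*. Their part in the level of *Sycp1* was not tested. In bulk RNA, more cells that express a gene and more RNA per cell cannot be told apart.

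Between clones, none of the 10 genes passed an adjusted p of 0.05 in the limma F test with passage as a term, where 0.135% of all names passed. That test had 2 libraries per clone, 1 from each passage. An unadjusted p under 0.05 was found only for *Sycp1* (F = 9.23, adjusted p = 0.410 from limma), or 1 of 10 genes, against 10.7% of all names. All names here include the displaced groups. In limma on names outside those groups, 1737 of 12283 had such a p, and *Sycp1* had an adjusted p of 0.166. DESeq2's likelihood ratio test called *Sycp1* alone of the 10 (adjusted p = 0.00855), at a background of 8.22% of names. The log2 range between clone means was 0.69 for *Sycp3*, 0.64 for *Asz1*, 0.46 for *Mael* and 0.42 for *Piwil2*, and it was under 0.28 for the other 5 genes. For *Asz1* the adjusted p of the limma F test was 0.489, and the clone means ran from 200.5 in clone 30 to 318 in clone 6.
Of 20 other meiosis genes tested, 3 had an unadjusted p under 0.05 between clones in limma, against 10.7% of all names. All genes of this list lie outside the displaced groups, where the limma fit gave 1737 of 12283 names. The share in the list was therefore close to that of the names it belongs with. These 3, *Sycp2*, *Smc1b* and *Tex15*, were named after their values were seen. None passed the adjusted threshold (lowest adjusted p = 0.170 from limma, for *Tex15*). In clone 30 *Tex15* had 185 and 143 normalized counts at passages 6 and 16, against 422 to 595 in the other 6 libraries. *Smc1b*, a meiotic cohesin gene, had 249.6 and 227 in clone 30, against 393 to 560.5 elsewhere. *Sycp2*, another axial element gene, had 48.4 and 68.7 in clone 30 and 111 to 200.4 in the other libraries. Not all genes of the list were low in clone 30. *Rec8* had 838 and 724 there, against 340 to 758 elsewhere, and *Hormad2* had 173 and 217, against 107 to 189. *Rec8* and *Hormad2* were also named after their values were seen.

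*Dpep3* encodes a membrane dipeptidase of the testis, lies on chromosome 8 from 105973513 to 105979429, and was counted at low depth. Its normalized count was 41.4, 27.9, 33.7 and 32.0 at passage 6 and 31.6, 41.1, 49.3 and 38.9 at passage 16, from between 27 and 51 reads per library. The exact Poisson interval of the lowest library, 19.0 to 39.6, overlapped that of the highest, 36.7 to 64.9, and these intervals cover counting error only. The log2 fold change was 0.24 (95% interval -0.22 to 0.71). An antisense noncoding gene, *Gm45752*, shares 119 of its 1698 exon bases.

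The germline genes of the same pathways are given here by list, to be read against the 7230 of 14791 names that were higher at passage 16. Of 17 other piRNA pathway genes, 12 lay outside the displaced groups and 11 of these were tested, with 8 higher at passage 16 by their log2 fold change, none past the adjusted threshold and a median log2 fold change of 0.18. *Gtsf1*, which encodes a cofactor of PIWI proteins, was the 1 gene of the list with an unadjusted p under 0.05, with a log2 fold change of 0.33. The highest read counts of the list outside the displaced groups, not corrected for length, were those of *Tex19.1*, with 2024 to 3470.5 normalized counts, and *Fkbp6*, with 408 to 658.5.
Of 22 other meiosis genes, 20 were tested, 14 were higher at passage 16, none passed, and the median log2 fold change was 0.055. *Stra8*, which starts meiosis in response to retinoic acid, and *Trip13* had the highest read counts of them, and *Stra8* had 2183 to 3673 normalized counts at passage 6 and 3183 to 4111 at passage 16. Of 16 further germline genes, 11 were tested, 6 were higher, none passed, and the median was 0.0059. The highest read counts among them outside the displaced groups were those of *Sohlh2*, a germ cell transcription factor gene, with 2058 to 4251 normalized counts, and *Tuba3a*, with 1748 to 3423.

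Among genes whose products repress such promoters, or add or remove DNA methylation, none of those tested passed between the passages. Of 17 genes of PRC1.6 and the H3K9 methylation machinery, 14 lay outside the displaced groups and were tested, 6 were higher at passage 16 and the median log2 fold change was -0.014. *Cbx3* and *Rybp* had the highest read counts. *Pcgf6* had 1969 to 2465 normalized counts, *E2f6* 1273 to 1545 and *Mga* 6242 to 10029. The lowest values of *Mga* were those of clone 30, 7702 at passage 6 and 6242 at passage 16. Next was the passage 16 library of clone 6, with 7720.3. *Mga* did not pass between clones (adjusted p = 0.278 from the limma F test). *Pcgf6* went the other way and was highest in clone 30 at both passages, at 2465 and 2344. All 8 genes of the DNA methylation machinery, the DNMT and TET genes and *Uhrf1*, were tested, 3 were higher at passage 16, and the median log2 fold change was -0.16. *Uhrf1* and *Tet1* had the highest read counts of these, not corrected for length, and *Dnmt3b* was the 1 gene with an unadjusted p under 0.05, at a log2 fold change of -0.50, with adjusted p = 0.947 in limma. *Xist*, the RNA that silences an X chromosome, had 76.9 to 185 normalized counts over the 8 libraries.

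The names whose pattern over the 8 libraries was most like each gene were found by the root mean square difference of log2 deviations from their own means, among 12282 names. For *Sycp1* these were *Mamdc2* (0.180) and *Filip1l* (0.191), where *Sycp1* itself deviated by 0.689. The nearest to *Asz1* were *Rhox7* (0.173), a homeobox gene of the reproductive Rhox cluster on the X chromosome, and *BC096441* (0.218), where *Asz1* deviated by 0.457. *Sycp3* had *Gpc3* (0.154) and *Aoc2* (0.157), and *Dazl* had *Atp13a4* (0.0906) and *Col5a3* (0.112). For *Mael* the nearest were *1700030C10Rik* (0.0938) and *Pdha2* (0.117), the testis form of a pyruvate dehydrogenase subunit that is itself on the list of further germline genes. *Brdt* was nearest to *Rasl10b* and *Creg1*, *Hormad1* to *Mbip* and *Chek1*, *Mov10l1* to *E130303B06Rik* and *Pygb*, *Piwil2* to *Actn4* and *Narfl*, and *Dpep3* to *Ier5* and *Dock8*. With 8 libraries from 4 clones and so many names, some are near by chance, and the values are a description.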

How the data were processed

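Gene counts of 8 libraries were taken from 1 deposited table of 23337 names, of which all columns were used. Per the labels and the study's methods, 50-nt single-end reads of stranded polyA libraries were aligned to GRCm38 with TopHat2 2.0.10 and Bowtie 1.0.0, allowing 2 mismatches and 5 multihits, and counted per gene with HTSeq 0.5.3p9 on the UCSC annotation. The authors deposited a signal per gene, the counts divided by a DESeq2 size factor. Divided by the smallest value above 0 of its library, 100% of the values of each library were whole within a tolerance of 1e-06, and the totals were 21394069 to 34295561 reads.
The main test was limma 3.58.1 (R 4.3.3, eBayes with a trend, two-sided, Benjamini-Hochberg) on log2(normalized count + 1) for every name averaging 10 or more, 14791 in all, for passage and, as an F test, for clone with passage as a term. All 10 germline genes passed that filter. A fold change on this scale understates that of low genes. edgeR 4.0.16 and DESeq2 1.42.0 were run on the recovered reads. Clones are labelled as independent lines, and the same clone number pairs the passages. Across 12283 names outside the displaced groups, deviations from the passage means correlated between the libraries of a clone with r = 0.0957 in clone 6 and 0.271 in clone 20. In clones 30 and 36, r was 0.701 and 0.433. The passage 6 library of clone 6 correlated more with clone 36 at passage 16 (r = 0.281).
Displaced groups are sets in which a name is the beginning of a longer name that goes on with a digit, and they hold 5080 names (21.8%). Their values were not used for lists. Of the list genes, 2 were matched by a synonym. The members and lists, the named genes (all 10 members, the 2 genes of each list with the highest mean count outside the displaced groups, list genes past a threshold and the 2 nearest names) and the tests were chosen with earlier results of these data known. List genes with an unadjusted p under 0.05 were named after their values were seen. Poisson intervals are exact and cover counting error only. The fits were tested on simulated counts. Other values were computed in Python 3.11.15 (scipy 1.17.1, pandas 2.3.3).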

Additional observations from a re-analysis of the deposited data

Results flagged for a closer look

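On the log2(normalized count + 1) scale, 2 values stood far from the other 3 clones at their passage. The ratio given is the distance to the nearest clone over the distance between the extremes. In all, 20 groups of 4 were examined, and chance gives about 1 in 20. At passage 6, clone 6 had a *Dazl* value of 11.25 and the other clones had 10.88 to 10.93 (ratio 0.863). Clone 20 had a *Mael* value of 9.649 at passage 6, where the other clones had 9.36 to 9.38 (ratio 0.935).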

How the results depend on the processing

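Each fit was repeated with other pseudocounts, filters, scaling and tools, without the displaced groups, and without each library and each clone. The number of germline genes past the threshold was 0 under all of these, between passages and between clones, except that DESeq2 with the replicate block gave 1 (*Asz1*, log2 fold change 0.74) between passages and DESeq2 gave 1 (*Sycp1*, log2 range 1.66) between clones. No other call among the 10 genes changed with the replicate block. Over all settings, the log2 fold change of *Asz1* lay between 0.58 and 0.88 and that of *Brdt* between 0.33 and 0.49. The sign of *Sycp3*, 0.040 in the main test, turned to -0.055 in edgeR and -0.057 in DESeq2, and it ranged from -0.29 to 0.34 when a library or clone was left out. Log2 fold changes that kept their sign when a library or clone was left out lay at -0.31 to -0.072 for *Piwil2*, -0.15 to -0.031 for *Hormad1*, 0.14 to 0.45 for *Dpep3*, 0.19 to 0.49 for *Dazl* and 0.12 to 0.22 for *Mov10l1*. In the same fits *Mael* ranged from -0.28 to 0.041 and *Sycp1* from -0.56 to 0.12 between passages. The log2 range of *Sycp1* between clones was 0.67 without clone 30 and at most 1.88 in the other left-out fits.
Over all names, the main test between passages called 1 name. DESeq2 called 44, and with the replicate block limma called 0, edgeR 2 and DESeq2 98. Outside the displaced groups it was 0, with 436 names at an unadjusted p under 0.05, and leaving out a library or clone gave 1 to 26 (26 without clone 30, 13 and 12 without its passage 6 or passage 16 library, and 6 without clone 20). Between clones, 20 names passed, 62 outside the displaced groups, 1123 in DESeq2 and 0 to 165 when a library or clone was left out (0 without clone 20, with 1843 names at an unadjusted p under 0.05, 165 and 109 without the passage 16 or passage 6 library of clone 6, 95 without both, and 54 and 36 without the passage 16 or passage 6 library of clone 30). The causes were not tested. *Dpep3* had the fewest reads of the 10 genes, 27 to 51 per library, and was not tested at a mean of at least 100.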
